A study of Sus scrofa with 32 samples.

Results

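Leukocyte integrins are a set of 8 genes chosen by symbol (ITGAE, ITGB7, ITGA4, ITGB1, ITGB2, ITGAL, ITGAM and ITGA1), and all 8 were among the 25880 genes of the deposited count matrices. The data were single-cell RNA sequencing (scRNA-seq) counts from the distal ileum and blood of 2 mixed-breed pigs 7 weeks old, pig 1 labelled female and pig 2 male. From each pig the ileum was dissected into tissue holding only regions with Peyer's patches (PP), tissue without them (non-PP) and a full cross section with both (whole ileum), and peripheral blood mononuclear cells (PBMC) were prepared separately. This gave 8 libraries in 4 groups of 2, with 1 library labelled for each pig in each group and no treatment in any group. Ileal cells of epithelium, lamina propria, Peyer's patches where present and submucosa were isolated together with enzyme digestion, a density gradient and removal of dead cells, whereas PBMC were isolated in cell preparation tubes without digestion, so tissue and isolation cannot be told apart. The 6 ileal libraries were labelled as from the same 2 pigs, and p-values here measure the spread between libraries.

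Integrins are cell surface receptors made of an alpha and a beta subunit, which hold cells to neighbouring cells and to the matrix and are switched to a binding state from inside the cell by talin and kindlin. In the gut, αEβ7 (ITGAE with ITGB7) binds E-cadherin on epithelial cells and marks many intraepithelial lymphocytes, while α4β7 (ITGA4 with ITGB7) binds the gut vessel addressin MAdCAM-1 and α4β1 binds VCAM-1 and fibronectin. LFA-1 (ITGAL with ITGB2) binds ICAMs on vessels and other leukocytes, Mac-1 (ITGAM with ITGB2) is carried by myeloid and natural killer cells and binds complement and ICAM-1, and α1β1 (ITGA1 with ITGB1) binds collagen.

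In the RefSeq annotation of the pig assembly Sscrofa11.1 the members lie on 7 chromosomes. ITGAE is on chromosome 12 from 49810050 to 49878142, ITGB7 on chromosome 5 from 18419432 to 18434376, ITGA4 on chromosome 15 from 86942054 to 87028428 and ITGB1 on chromosome 10 from 56078393 to 56130608. ITGB2 is on chromosome 13 from 207514281 to 207544108, and ITGA1 is on chromosome 16 from 32130265 to 32309917. ITGAM (17216719 to 17272134) and ITGAL (17817785 to 17858057) both lie on chromosome 3.

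Cells were kept above a floor on unique molecular identifiers (UMIs, each counting 1 captured transcript) and on genes and below a ceiling on the mitochondrial share, which left 3776 to 7704 cells per library and 48629 in all, with a median of 2577.5 to 3583.5 UMIs. Cells were put into T, B, innate and myeloid gates by UMIs of lineage markers, none of which was an integrin, and 79.6 to 87.4% of cells per library fell into a gate. Levels (CPM) are UMIs of a gene in 1000000 UMIs over the summed cells of a gate in a library, and in such sums fewer positive cells and less RNA per cell cannot be told apart. A share of cells is the percentage with at least 1 UMI of a gene after each cell was thinned to the UMI floor. Differences are log2 fold changes from edgeR's quasi-likelihood test on those sums with Benjamini-Hochberg adjustment over all genes tested in a gate (adjusted p), and a gene was called at an adjusted p below 0.05.

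Several libraries and gates stood apart. The whole ileum library labelled pig 1 held 197 CPM of 4 Y-linked genes, against 0 to 0.224 CPM in the other libraries labelled pig 1 and 108 to 215 CPM in those of pig 2, so it went against its label, and fits with pig as a replicate block put it with the other libraries labelled pig 1. Ileal sums per pig also followed the labels and were not repeated without that library. Other results that depended on the whole ileum libraries, and calls gained with the replicate block, are given without them. The ileal myeloid gate went against its name: it held 676 to 1330 CPM of the epithelial gene EPCAM, against 0 in PBMC, and 66.9 to 269.6 CPM of the leukocyte gene PTPRC, against 628 to 740 CPM. A cleaned myeloid gate, set after seeing this and leaving out cells with epithelial, stromal or high JCHAIN counts, kept only 24 to 65 cells per ileal library and 391 and 1134 in PBMC. The innate gate was built without CD3E but held 809 to 2220 CPM of CD3G in the ileum and 669 to 769 CPM in PBMC, and the non-PP B gate held only 31 and 57 cells. Libraries shared between 21 and 80 cell barcodes, 0.556 to 1.23% of the smaller library of a pair.

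ITGAE, the alpha chain of the epithelium-binding αEβ7, was the member that rose in the ileum. In T cells it was at 270 and 171 CPM in PP (pig 1, then pig 2), at 455 and 309 CPM in non-PP, at 227 and 195 CPM in whole ileum, and at 24.8 and 23.9 CPM in PBMC. Every ileal library lay above both PBMC libraries, and the difference was 3.41 ± 0.27 on the log2 scale (SE; edgeR adjusted p = 0.00014). The share of T cells with an ITGAE UMI was 17.8 to 40.9% in the ileum and 2.95 and 2.46% in PBMC. In the innate gate ITGAE was at 272 and 340 CPM in PP, 531 and 496 CPM in non-PP, 489 and 377 CPM in whole ileum, and 19.9 and 19.4 CPM in PBMC. The innate difference was 4.30 ± 0.26 (adjusted p = 4.9e-08), with 15.0 to 46.6% of ileal and 2.43 and 2.74% of PBMC innate cells holding a UMI. B cells gave the background for these shares, with an ITGAE UMI in 3.23 to 7.02% of ileal and in 3.01 and 1.22% of PBMC B cells. In B cells ITGAE spanned 23.9 to 55.2 CPM in the ileum and was at 23.4 and 14.9 CPM in PBMC, a difference of 0.63 ± 0.30 that was not called (adjusted p = 0.13), but was with pig as a replicate block and both whole ileum libraries left out (0.76, adjusted p = 0.023). Free RNA in droplets under 100 UMIs held 75.4 to 233 CPM of ITGAE in the ileum and 33.3 to 33.8 CPM in PBMC, below the T cell level of the same library in all 6 ileal libraries and above it in both PBMC libraries. The ileal B cell values all lay below that free RNA of the ileum. The T and innate differences stayed called when 10% of each sum was subtracted as the free RNA profile.

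ITGB7, the beta chain that αEβ7 and α4β7 share, did not rise with ITGAE. In T cells it spanned 135 to 178 CPM with a median of 148 CPM over the 6 ileal libraries and was at 172 and 215 CPM in PBMC. The ileal and PBMC ranges touched, and the difference of -0.36 ± 0.12 was not called (adjusted p = 0.054), although it was with pig as a replicate block (adjusted p = 0.038; 0.058 once both whole ileum libraries were left out) and without the PBMC library of pig 1 (-0.53, adjusted p = 0.04). The share of T cells with an ITGB7 UMI was 15.1 to 20.9% in the ileum and 20.2 and 23.5% in PBMC. In the innate gate ITGB7 spanned 68.1 to 197 CPM in the ileum and was at 130 and 201 CPM in PBMC, with a difference of -0.21 ± 0.21 (adjusted p = 0.51).

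ITGA4, the alpha chain of α4β7 and α4β1, was lower in the ileum in all 4 gates. In T cells it spanned 108 to 130 CPM over the ileal libraries, with a median of 123 CPM, and was at 316 and 215 CPM in PBMC. No ileal T value reached a PBMC value, and the difference was -1.16 ± 0.15 (adjusted p = 0.0013). In the innate gate the ileal values of 28.8 to 93.6 CPM were below the 422 and 339 CPM of PBMC by more, with a difference of -2.91 ± 0.26 (adjusted p = 1.8e-06). In B cells the difference was -1.30 ± 0.17 (adjusted p = 0.00031), with PP at 43.2 and 34.5 CPM, non-PP at 124 and 58.9 CPM, whole ileum at 44.4 and 36.3 CPM and PBMC at 103 and 107 CPM. The non-PP library of pig 1, with 31 B cells, was the exception and lay above both PBMC libraries. Free RNA held 39.6 to 48.4 CPM of ITGA4 in the ileum and 126 to 136 CPM in PBMC. The ileal T values lay above that of the ileum, and the ileal innate values spanned it. PP and whole ileum B values lay within or below it, and both PBMC B values lay below that of PBMC. How much of these values is free RNA was not tested.

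ITGB1, the beta chain of α4β1, α1β1 and several matrix receptors, fell in ileal T cells and B cells. T cells held 50.6 to 108 CPM over the ileal libraries, with a median of 69.7 CPM, and 289 and 173 CPM in PBMC, a difference of -1.65 ± 0.19 (adjusted p = 0.00074) with no overlap. B cells held 29.5 to 78.2 CPM in the ileum and 80.1 and 80.5 CPM in PBMC, a smaller difference of -0.74 ± 0.15 (adjusted p = 0.0038). Free RNA held 52.1 to 99.3 CPM of ITGB1 in the ileum and 177 to 209 CPM in PBMC. The ileal T and B ranges overlapped that of the ileum, and both PBMC B values lay below that of PBMC. How much of the T and B values is free RNA was not tested. Innate cells held more ITGB1 than T cells in the ileum, at 172 to 281 CPM, against 328 and 227 CPM in PBMC. Their ileal and PBMC values overlapped and the difference of -0.54 ± 0.21 was not called (adjusted p = 0.079), but was with pig as a replicate block (-0.50, adjusted p = 0.027), a call lost when both whole ileum libraries were also left out (-0.39, adjusted p = 0.12). It was called too without the non-PP library of pig 1, the PP library of pig 1 or the PBMC library of pig 2 (adjusted p from 0.032 to 0.035).

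ITGB2, the beta chain of LFA-1 and Mac-1, was lower in the ileum in every gate. T cells held 107 and 85.5 CPM in PP, 20.9 and 25.0 CPM in non-PP, 72.1 and 69.3 CPM in whole ileum, and 521 and 340 CPM in PBMC. The groups did not overlap, and the difference was -3.02 ± 0.15 (adjusted p = 2.7e-05), with a UMI in 2.27 to 14.1% of ileal T cells against 48.1 and 30.6% in PBMC. The innate gate had the largest ITGB2 difference of the 4 gates, at 17.0 and 21.8 CPM in PP, 5.48 and 7.07 CPM in non-PP, 16.7 and 9.04 CPM in whole ileum, and 748 and 620 CPM in PBMC. This was -5.84 ± 0.21 (adjusted p = 9.1e-10), with 0.312 to 5.0% of ileal and 62.9 and 54.4% of PBMC innate cells positive. The ileal values rest on 1 to 14 UMIs per library, and free RNA in the ileum held 17.8 to 85.6 CPM of ITGB2, in each library more than its innate gate, so the ileal innate values are at background. B cells held 66.3 to 108 CPM in the ileum and 236 and 206 CPM in PBMC, a difference of -1.47 ± 0.12 (adjusted p = 2.1e-05). Free RNA in PBMC held 296 to 311 CPM of ITGB2. Both PBMC B values lay below it, and the ileal B range overlapped the free RNA of the ileum. How much of the B values is free RNA was not tested.

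ITGAL, the alpha chain of LFA-1, fell with its partner in T cells and innate cells but by less. T cells held 58.8 to 79.0 CPM in the ileum, with a median of 61.3 CPM, and 124 and 110 CPM in PBMC, a difference of -0.85 ± 0.09 (adjusted p = 0.00074). Innate cells held 51.1 to 104 CPM in the ileum and 231 and 241 CPM in PBMC, a difference of -1.60 ± 0.17 (adjusted p = 1.3e-05). B cells held little, 14.5 to 29.5 CPM in the ileum and 15.5 and 15.2 CPM in PBMC, with a difference of -0.02 ± 0.24 (adjusted p = 0.95).

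ITGAM, the alpha chain of Mac-1, was at the edge of detection in ileal T cells (1.46 to 2.83 CPM), and the PBMC libraries differed from each other at 47.3 and 7.45 CPM. The difference of -3.94 ± 0.57 was called (adjusted p = 0.0024), but not when ileal libraries of the same pig label were summed to 1 (adjusted p = 0.053). The sum for pig 1 includes the whole ileum library that went against its label. Innate cells held 0 to 11 CPM in the ileum and 151 and 122 CPM in PBMC, a difference of -5.09 ± 0.33 (adjusted p = 1.1e-07). In B cells ITGAM was at 11.7 and 16.4 CPM in PP, 5.89 and 11 CPM in non-PP, 13.1 and 22.1 CPM in whole ileum, and 58.7 and 113 CPM in PBMC, with a difference of -2.97 ± 0.33 (adjusted p = 0.00013). Free RNA held 2.93 to 12.8 CPM of ITGAM in the ileum and 38.7 to 52.0 CPM in PBMC.

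ITGA1, the alpha chain of the collagen receptor α1β1, was sparse in every gate. T cells held 2.60 to 5.64 CPM in the ileum and 5.43 and 2.90 CPM in PBMC, with a UMI in at most 0.838% of T cells of any library, and the difference of -0.14 ± 0.31 was not called (adjusted p = 0.76). Only T cells passed the filter on low counts for ITGA1 among the 4 gates, and B cells held at most 0.125 CPM. In the innate gate ITGA1 lay below both PBMC libraries in 5 of 6 ileal libraries and above both in 1. The ileum minus PBMC difference was not called as unequal between innate and T cells (-4.47 ± 1.27, edgeR adjusted p = 0.10).

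**Figure D1:**
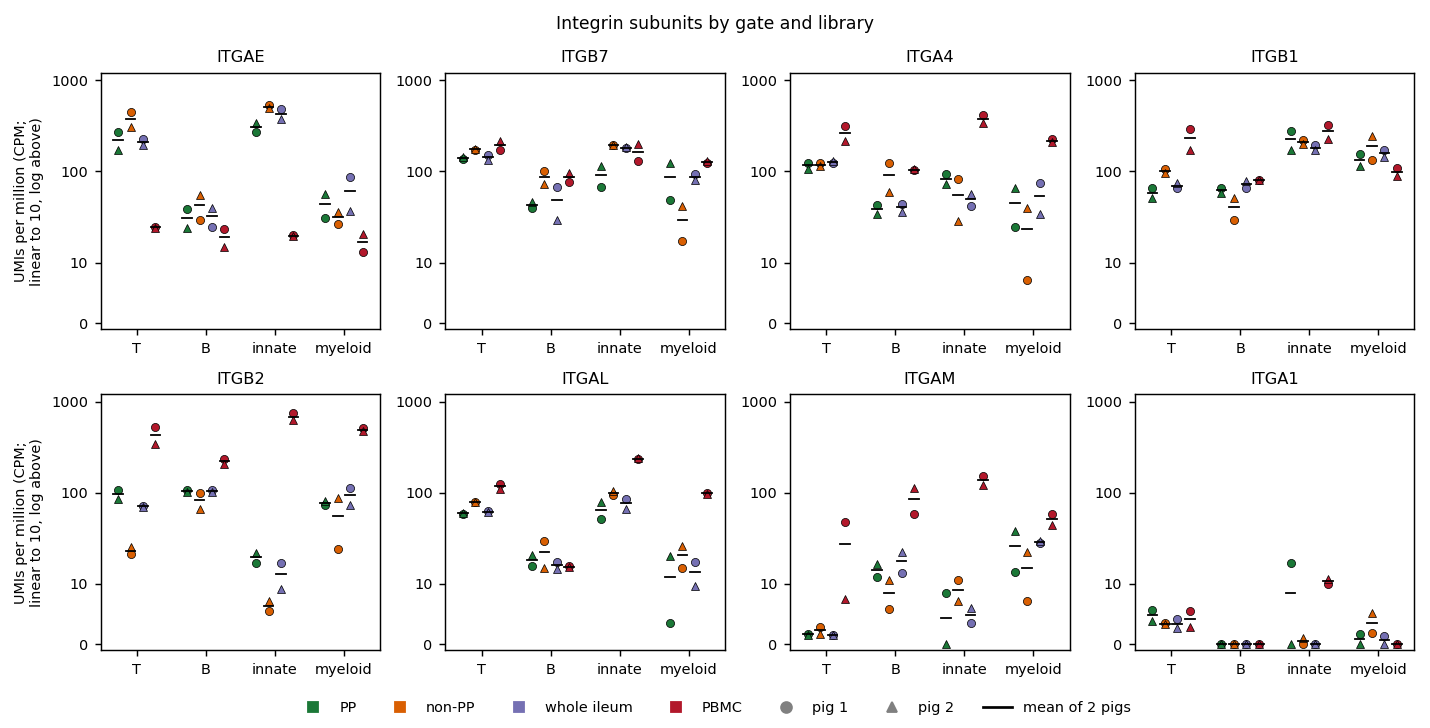
Level of each of the 8 integrin genes in CPM (vertical axis, linear to 10 and logarithmic above) in the T, B, innate and myeloid gates; each point is 1 library, coloured by group. ITGAE points of the ileal libraries lie above PBMC in T and innate cells, and ITGB2 points lie below PBMC in every gate.

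Over the members, 1 of 8 was called higher and 5 of 8 lower in ileal T cells, against 14.2% and 12.8% of all genes tested. In innate cells 1 of 7 tested was called higher and 4 lower, against 10.8% and 12.9% of all genes. Among these 4, ITGAM was scarce in the ileum and entered the test through its PBMC level, so only a lower call was open to it. In B cells 5 of 7 were called lower, against 20.6% of all genes, and none higher, against 14.1%, with the same counts by DESeq2 and no member outside those 5 at an unadjusted p below 0.05. The median difference of the members was -1.0 in T, -1.60 in innate and -0.90 in B cells, where the median of all genes was -0.00, -0.03 and -0.15. The fifth B cell call was ITGB7, at 29.0 to 100 CPM in the ileum and 76.9 and 96.3 CPM in PBMC (-0.90 ± 0.28, adjusted p = 0.034). It was lost without either non-PP library (adjusted p = 0.092 and 0.16) or either PBMC library (adjusted p = 0.059 and 0.18). The T gate of the ileum also held 27.5 to 284 CPM of an epithelial list against 1.26 to 1.57 CPM in PBMC, and the part of these transcripts in the integrin values was not tested.

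**Figure D2:**
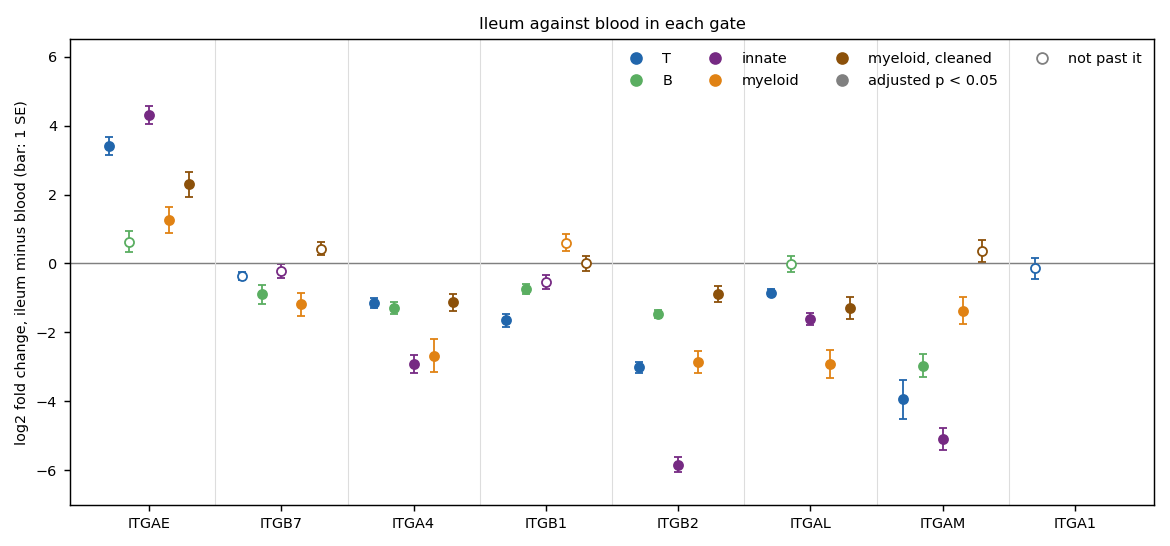
Log2 fold change of ileum minus PBMC for each integrin gene by gate, with bars of 1 SE; filled points passed an adjusted p of 0.05 in edgeR. ITGAE lies above 0 at 3.41 in T and 4.30 in innate cells, and ITGB2 lies below 0 at -3.02, -5.84 and -1.47 in T, innate and B cells.

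These differences were followed in CD4, CD8 and γδ T cells, defined by UMIs of CD4, CD8B or TRDC alone. Together the subsets held 50.8 to 58.2% of the T gate in the ileum and 37.9 and 57.2% in PBMC. The other T cells held none or more than 1 of these markers, and which subsets they belong to was not tested. ITGAE separated CD4 T cells from CD8 and γδ T cells. CD8 T cells held 395 and 251 CPM in PP, 458 and 280 CPM in non-PP, 261 and 239 CPM in whole ileum, and 27.4 and 21.2 CPM in PBMC (3.67 ± 0.29, adjusted p = 3.6e-05). γδ T cells held 206 to 511 CPM in the ileum and 23.3 and 18.1 CPM in PBMC (3.99 ± 0.35, adjusted p = 0.00023). CD4 T cells held 36.3 to 82.9 CPM in the ileum and 32.2 and 30.9 CPM in PBMC, a difference of 0.65 ± 0.24 that was not called (adjusted p = 0.08), but was with the replicate block and both whole ileum libraries left out (0.77, adjusted p = 0.042). These ileal CD4 values lay below or within the range of ITGAE in free RNA of the ileum, 75.4 to 233 CPM. Within the ileum, with library as a block, ITGAE was higher in CD8 than in CD4 T cells by 2.65 ± 0.13 and in γδ than in CD4 T cells by 2.76 ± 0.13 on the log2 scale, both called, against 9.57% and 13.2% of all genes higher in these subsets. In PBMC neither difference was called (adjusted p = 0.54 and 0.27).

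ITGB7 was lower in ileal CD4 T cells, at 45.2 to 104 CPM against 137 and 181 CPM in PBMC (-0.99 ± 0.21, adjusted p = 0.0058), a call lost without the PBMC library of pig 2 (adjusted p = 0.11). CD8 T cells (-0.30 ± 0.16, adjusted p = 0.24) and γδ T cells (-0.28 ± 0.17, adjusted p = 0.3) did not pass the test, and whether the subsets differ in this was not tested. Within the ileum ITGB7 was higher in CD8 than in CD4 T cells by 1.04 ± 0.12 and in γδ than in CD4 T cells by 0.98 ± 0.12. Free RNA held 55.8 to 123 CPM of ITGB7 in the ileum and 111 to 153 CPM in PBMC. The ileal CD4 values lay below or within that ileal range, and how much of them is free RNA was not tested.

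ITGB1 was lower in ileal CD4 T cells, with 29.1 to 52.2 CPM in the ileum and 243 and 209 CPM in PBMC (-2.46 ± 0.17, adjusted p = 7.4e-07). These ileal CD4 values lay below or within the range of ITGB1 in free RNA of the ileum, 52.1 to 99.3 CPM. In CD8 T cells the difference was -1.96 ± 0.18 (adjusted p = 8.6e-05). In γδ T cells the PBMC libraries stood far apart, at 342 and 82.4 CPM, around an ileal range of 75.2 to 135 CPM. That difference of -1.08 ± 0.39 was not called (adjusted p = 0.098), but was without the PBMC library of pig 2 (-1.74, adjusted p = 0.00032) and with pig as a replicate block (-0.93, adjusted p = 0.048), the latter not once both whole ileum libraries were left out (-0.80, adjusted p = 0.11). Within the ileum ITGB1 was higher in γδ than in CD4 T cells by 1.11 ± 0.15 (adjusted p = 1.3e-06), while CD8 and CD4 T cells were not separated (0.21 ± 0.16, adjusted p = 0.42). ITGA4 was called lower in CD4 (-0.88 ± 0.18, adjusted p = 0.004) and CD8 T cells (-1.04 ± 0.13, adjusted p = 0.00054), the first lost without the PBMC library of pig 1 (adjusted p = 0.089). In γδ T cells ITGA4 missed the threshold (-0.86 ± 0.25, adjusted p = 0.051) and passed it with the replicate block (-0.80, adjusted p = 0.0061; 0.016 without both whole ileum libraries) and without the PBMC library of pig 2 (-1.28, adjusted p = 0.0022).

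ITGB2 fell in ileal cells of all 3 subsets. Free RNA in PBMC of pig 2 held 296 CPM of it, above the PBMC CD4 and γδ values of that pig. How much of these values is free RNA was not tested. CD4 T cells kept the most, 193 and 146 CPM in PP, 60.3 and 121 CPM in non-PP and 159 and 104 CPM in whole ileum, against 331 and 269 CPM in PBMC (-1.25 ± 0.20, adjusted p = 0.00071). CD8 T cells held 17.5 to 61.8 CPM in the ileum and 488 and 466 CPM in PBMC (-3.66 ± 0.12, adjusted p = 1.4e-07), and γδ T cells 13.0 to 62.2 CPM against 459 and 184 CPM (-3.38 ± 0.29, adjusted p = 0.00019). Within the ileum ITGB2 was lower in CD8 than in CD4 T cells by -1.55 ± 0.17 and in γδ than in CD4 T cells by -1.86 ± 0.17 on the log2 scale, against 11.9% and 15.4% of all genes lower. In PBMC ITGB2 was not called in either direction (0.69 ± 0.24, adjusted p = 0.2, and -0.02 ± 0.24, adjusted p = 0.99). ITGAL was called lower only in CD8 T cells among the subsets (-0.98 ± 0.15, adjusted p = 0.002), and ITGAM only in γδ T cells (-3.38 ± 0.62, adjusted p = 0.0077), where it was at 0.944 to 4.22 CPM in the ileum and 35.9 and 6.5 CPM in PBMC. ITGAM was not called once the ileal libraries of each pig label were summed (adjusted p = 0.09). It did not pass the filter on low counts in the other subsets.

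In CD4 T cells 4 of 6 members tested were called lower, against 6.91% of all genes, and none higher against 9.35%; DESeq2 called 4 lower and none higher, and 5 members had an unadjusted p below 0.05. In CD8 T cells 1 of 6 was called higher and 4 lower (8.13% and 7.91% of all genes). In γδ T cells 1 of 8 was called higher and 2 lower (7.73% and 7.58%). One of these 2 lower calls, ITGAM, was scarce in the ileum and entered the test through PBMC, so only a lower call was open to it. The subset gates held 44 to 352 CD4, 261 to 631 CD8 and 411 to 1088 γδ T cells per library, so the CD4 values are the least precise.

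**Figure D3:**
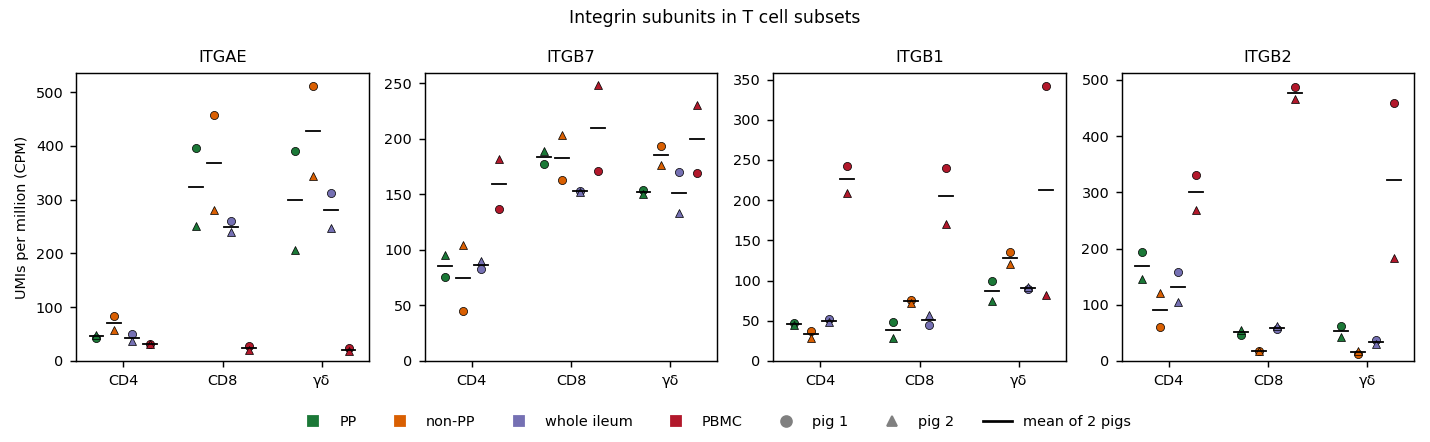
Levels of ITGAE, ITGB7, ITGB1 and ITGB2 in CPM in CD4, CD8 and γδ T cells, with 1 point per library coloured by group. In CD4 T cells ITGAE of the ileum (36.3 to 82.9) sits just above PBMC (30.9 and 32.2), whereas CD8 and γδ T cells of the ileum lie far above it.

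B cells that held CCR7, a receptor for homing to lymphoid tissue, and no high JCHAIN were tested as a gate of their own. The non-PP libraries held 5 such cells each and were left out. Free RNA in PBMC held 296 to 311 CPM of ITGB2, above both PBMC values of ITGB2 in this gate. ITGA4 was at 50.5 to 63.1 CPM in PP and whole ileum and at 110 and 118 CPM in PBMC (-1.03 ± 0.15, adjusted p = 0.00076). ITGAM was at 8.85 to 18.2 CPM in the ileum and 51.4 and 60.4 CPM in PBMC (-2.19 ± 0.23, adjusted p = 0.00012), and ITGB2 at 103 to 148 CPM and 214 and 178 CPM (-0.71 ± 0.17, adjusted p = 0.015). The ITGB2 call was lost without the PBMC library of pig 1 (adjusted p = 0.12) or the whole ileum library of pig 2 (adjusted p = 0.052). With these, 3 of 7 members tested were called lower, against 7.68% of all genes, and none higher, against 10.4%, by edgeR and by DESeq2, with 4 at an unadjusted p below 0.05. ITGB7 at 53.2 to 74.6 CPM in the ileum and 75.2 and 62.9 CPM in PBMC (-0.15 ± 0.16, adjusted p = 0.58) and ITGB1 (-0.21 ± 0.18, adjusted p = 0.46) were not called. ITGAL was at 17.3 and 24.1 CPM in PP, 22.0 and 19.4 CPM in whole ileum, and 10.7 and 11.2 CPM in PBMC. It lay above PBMC in 4 of 4 ileal libraries, but its difference of 0.82 ± 0.32 was not called (adjusted p = 0.11). ITGAE, at 14.4 to 27.0 CPM in the ileum and 21.5 and 17.2 CPM in PBMC, was not called either (0.20 ± 0.29, adjusted p = 0.7), and ITGA1 gave at most 1 UMI per library.

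Myeloid values turned on the cleaning of the gate. As first gated, ITGAE was called higher in the ileum (1.26 ± 0.38, adjusted p = 0.027), and ITGB2 (-2.85 ± 0.32), ITGAL (-2.91 ± 0.41), ITGA4 (-2.68 ± 0.48), ITGAM (-1.37 ± 0.39) and ITGB7 (-1.19 ± 0.34) lower. These were 1 higher and 5 lower of 7 members tested, against 26.4% and 18.9% of all genes. The ITGAE, ITGB7 and ITGAM calls were each lost without either PBMC library, ITGAE also without both whole ileum libraries (1.03, adjusted p = 0.055), and ITGB7 and ITGAM without either of these (adjusted p from 0.057 to 0.069). ITGB1 was not called (0.61 ± 0.24, adjusted p = 0.069), but was without either non-PP library (adjusted p = 0.022 and 0.048).

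After cleaning, ITGAM was at 54.9 and 64.3 CPM in PP, 56.6 and 86.1 CPM in non-PP, 29.7 and 86.2 CPM in whole ileum, and 58.6 and 45.4 CPM in PBMC. The groups overlapped and the difference changed sign to 0.35 (adjusted p = 0.43). ITGB7 also changed sign, to 0.43 (adjusted p = 0.093), with 132 to 203 CPM in the ileum and 124 and 131 CPM in PBMC. Lower calls that remained were ITGB2 (-0.90, adjusted p = 0.017), at 175 to 311 CPM against 508 and 479 CPM, ITGA4 (-1.12, adjusted p = 0.0078), at 60.4 to 143 CPM against 222 and 208 CPM, and ITGAL (-1.30, adjusted p = 0.014), at 12.9 to 136 CPM against 98.1 and 99.2 CPM. ITGAE was at 34.0 to 119 CPM against 11.6 and 21.2 CPM (2.29, adjusted p = 0.0014), with a UMI in 3.85 to 12.3% of ileal cells, near the share in ileal B cells, and in 5 of 6 ileal libraries the level was below that of free RNA. ITGB1 did not pass the test (0.00, adjusted p = 1.0), at 66.2 to 113 CPM in the ileum and 108 and 87.7 CPM in PBMC, and ITGA1 gave no UMI in any library. The cleaned gate thus had 1 member higher and 3 lower of 7 tested, against 15.5% and 15.7% of all genes, and held 19.9 to 102 CPM of the epithelial list.

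**Figure D4:**
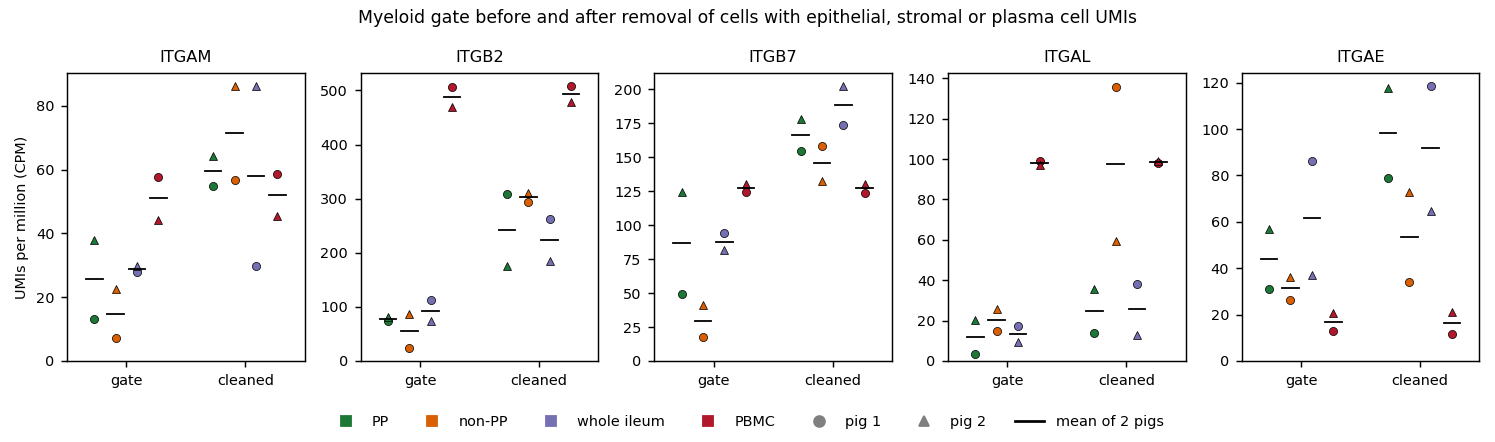
Levels of 5 integrin genes in CPM in the myeloid gate as first set and after leaving out cells with epithelial, stromal or high JCHAIN counts, with 1 point per library coloured by group. ITGAM and ITGB7 of the ileal libraries lie below PBMC before cleaning. After it ITGB7 lies above PBMC, and ITGAM lies around the PBMC values, with 3 ileal libraries above and 1 below both.

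The comparison of PP with non-PP asked how integrin levels vary within the ileum of the same pigs. ITGB2 was the member that passed the test. In T cells its PP values of 107 and 85.5 CPM were above the non-PP values of 20.9 and 25.0 CPM in both pigs, with whole ileum between them, and the difference was 2.11 ± 0.22 (adjusted p = 0.0061). The call was lost without the non-PP library (2.00, adjusted p = 0.053) or the PP library of pig 1 (1.96, adjusted p = 0.051), and it held without both whole ileum libraries (adjusted p = 0.033). The make-up of the T gate moved with it: CD4 T cells were 11.7 and 9.20% of the gate in PP and 1.41 and 3.42% in non-PP, and γδ T cells 24.2 and 27.1% in PP and 34.8 and 34.2% in non-PP. Within CD8 T cells ITGB2 was at 47.1 and 55.1 CPM in PP and 18.3 and 17.5 CPM in non-PP. This difference had the same direction (1.55 ± 0.19, adjusted p = 0.026). Free RNA held 75.3 and 85.6 CPM of ITGB2 in PP and 17.8 and 18.3 CPM in non-PP (pig 1, then pig 2). In PP both CD8 values lay below this free RNA, and in non-PP they lay near it. The T gate value lay above it in PP of pig 1 and in non-PP of both pigs, and level with it in PP of pig 2. The part of free RNA in these differences was not tested. That CD8 call was lost without any of the 6 ileal libraries (adjusted p from 0.071 to 0.30). In γδ T cells ITGB2 was at 62.2 and 43.3 CPM in PP and 13.0 and 18.6 CPM in non-PP (1.77 ± 0.44, edgeR adjusted p = 0.59, DESeq2 adjusted p = 0.018), and in CD4 T cells the difference was 0.76 ± 0.33 (adjusted p = 0.37).

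In T cells 1 of 8 members was called higher in PP and none lower, against 0.814% and 0.151% of all genes, with 4 members at an unadjusted p below 0.05 and the same calls by DESeq2. In CD8 T cells 1 of 6 was called higher, against 0.104%. ITGAE ran the other way in T cells, at 270 and 171 CPM in PP and 455 and 309 CPM in non-PP, lower in PP in both pigs. Its difference of -0.77 ± 0.26 was not called (adjusted p = 0.26) but was with pig as a replicate block (adjusted p = 0.047), also without both whole ileum libraries (adjusted p = 0.033). ITGB1 in T cells, at 65.4 and 50.6 CPM in PP and 108 and 96.1 CPM in non-PP (-0.78 ± 0.25, adjusted p = 0.24), was called with the block once both whole ileum libraries were left out (adjusted p = 0.02). In that setting 270 of all genes were called higher and 201 lower in T cells. Free RNA held 54.8 and 52.1 CPM of ITGB1 in PP and 75.1 and 99.3 CPM in non-PP, and its part in this difference was not tested. Inside CD8 T cells ITGAE differed by -0.15 ± 0.28 and inside γδ T cells by -0.51 ± 0.31, neither called.

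In the B, innate, myeloid, CD4 T and γδ T gates edgeR called no member between PP and non-PP, against 0.0507%, 0.351%, 0.0113%, 1.26% and 0.0% of all genes called in either direction. At an unadjusted p below 0.05 there were 1, 4, 1, 1 and 2 members in these gates, and DESeq2 called 1 in B cells (ITGA4, -1.18, adjusted p = 0.044), 1 in γδ T cells (ITGB2) and none in the others.

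The order of the gates differed between members. In the ileum, with library as a block, B cells held less than T cells of ITGAE (-2.94 ± 0.25), ITGAL (-1.87 ± 0.15), ITGB7 (-1.70 ± 0.28) and ITGA4 (-1.56 ± 0.29) and more of ITGAM (2.84 ± 0.28) and ITGB2 (0.54 ± 0.20), all called, against 29.4% of all genes higher and 30.7% lower in B cells. The ITGB2 call was lost without the library block (0.61, adjusted p = 0.10). ITGB1 in B and T cells did not differ beyond the spread (-0.22 ± 0.15, adjusted p = 0.23). Innate cells of the ileum held more ITGB1 than T cells (1.27 ± 0.16) and less ITGB2 (-2.38 ± 0.33) and ITGA4 (-1.38 ± 0.35, adjusted p = 0.0067), against 6.61% of all genes higher and 9.45% lower. ITGAE (0.54 ± 0.22, adjusted p = 0.12), ITGAL (0.17 ± 0.16, adjusted p = 0.57) and ITGB7 (-0.08 ± 0.28, adjusted p = 0.92) of innate and T cells were not separated.

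In PBMC the order was another. Innate cells held more ITGB2 (0.65 ± 0.14, adjusted p = 0.013), ITGAL (0.98 ± 0.12, adjusted p = 0.00071) and ITGAM (2.41 ± 0.58, adjusted p = 0.023) than T cells, against 6.26% of all genes higher, whereas ITGAE did not differ (-0.35 ± 0.28, adjusted p = 0.5). B cells held less ITGAL (-2.80 ± 0.14), ITGB1 (-1.35 ± 0.18), ITGA4 (-1.19 ± 0.16), ITGB7 (-1.03 ± 0.14) and ITGB2 (-0.81 ± 0.14) than T cells, all called, against 15.6% of all genes lower, and more ITGAM (1.99 ± 0.57, adjusted p = 0.021), against 15.2% higher. ITGA1 was also called lower in B and in myeloid cells (adjusted p = 0.00088 and 0.00044), with no UMI in these gates in either PBMC library against 69 and 30 UMIs in T cells. Myeloid and T cells of PBMC did not differ beyond the spread in ITGB2 (0.30 ± 0.14, adjusted p = 0.087), ITGAL (-0.16 ± 0.12, adjusted p = 0.3) or ITGA4 (-0.17 ± 0.15, adjusted p = 0.38), while ITGB1 (-1.10 ± 0.17) and ITGB7 (-0.50 ± 0.14, adjusted p = 0.01) were lower in myeloid cells, against 27.5% of all genes lower. ITGAM was not separated between myeloid and T cells of PBMC either (1.11 ± 0.57, adjusted p = 0.12). Without the library block the calls of ITGAM in B cells (adjusted p = 0.11) and of ITGB7 in myeloid cells (adjusted p = 0.10) were lost, as were those of ITGB2 and ITGAM in innate cells (adjusted p = 0.16 and 0.13). CD8 T cells held more ITGAL than CD4 T cells (1.07 ± 0.22, adjusted p = 0.028), against 1.13% of all genes higher, and γδ T cells more ITGAM (1.86 ± 0.41, adjusted p = 0.031), against 1.75%, and neither was called without the block (adjusted p = 0.30 and 0.75).

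The tissue differences themselves were compared between gates with interaction terms in edgeR, without a library block. Between innate and T cells 2 members had an unequal ileum minus PBMC difference (ITGB2 and ITGA4), against 1.63% of all genes. Between B and T cells 4 did (ITGAE, ITGB2, ITGB1 and ITGAL), against 20.8% of all genes. Between B and T cells only ITGAE and ITGB2 stayed called under stricter gates. Of the ileal libraries, only the non-PP library of pig 2 kept enough innate cells under those gates. ITGB1 and ITGAL between B and T cells were not called without both whole ileum libraries. The PP minus non-PP difference of ITGB2 in B against T cells was not called (adjusted p = 0.063), against 0.203% of all genes.

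Partner chains were then followed within single cells, as shares of thinned cells that are a description without a test. Of ileal T cells with an ITGAE UMI, 19.3 to 25.8% also held ITGB7, against 13.1 to 19.95% of other T cells, higher in 6 of 6 libraries. In innate cells the shares were 21.7 to 38.6% and 9.09 to 21.4%, higher in all 5 libraries with at least 20 cells on each side. Within CD8 T cells the ITGAE-positive share was higher in 4 of 6 and within γδ T cells in 3 of 6 libraries. For LFA-1, ITGB2 was found in 41.5 to 59.2% of PBMC T cells with ITGAL and 28.9 to 45.9% of those without, higher in 2 of 2 libraries, while in ileal T cells it was higher in 2 of 6. Within ileal CD8 T cells the share was higher in 5 of 6 libraries (1.79 to 9.52% against 1.34 to 5.83%), and within ileal γδ T cells in 2 of 6.

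Genes of integrin activation and linkage were followed in the same gates, with 16 of 17 listed tested. In ileal T cells 2 were called higher and 6 lower, against 14.2% and 12.8% of all genes, and in innate cells 2 higher and 8 lower, against 10.8% and 12.9%. In B cells 6 were called lower, against 20.6%. FLNA, which codes for filamin A, an actin crosslinker that binds beta integrin tails, was at 20.9 to 37.2 CPM in ileal T cells and 298 and 323 CPM in PBMC (-3.46 ± 0.20). VCL, coding for vinculin, the link from talin to actin, was at 1.20 to 2.63 CPM and 43.0 and 62.6 CPM (-4.70 ± 0.21). PTK2B, an adhesion-linked tyrosine kinase, went the other way at 83.1 to 159 CPM and 24.3 and 28.9 CPM (1.98 ± 0.15), and RASGRP2, which activates RAP1, was lower (-1.71 ± 0.10). In innate cells FLNA (-4.07 ± 0.23), RASGRP2 (-2.52 ± 0.21) and RAP1B, a GTPase that turns integrins on (-2.27 ± 0.18), were lower, and VCL was at 0 to 6.03 CPM in the ileum and 143 and 152 CPM in PBMC. In B cells FLNA (-3.65 ± 0.15), RASGRP2 (-0.96 ± 0.17) and RAP1B (-0.65 ± 0.12) were lower. In the cleaned myeloid gate 12 were tested, with FLNA lower (-2.44 ± 0.29) and CYTH1, an exchange factor that binds ITGB2 (1.32 ± 0.38), higher. The part of free RNA in the values of these genes was not tested.

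Of 16 other integrin subunits in the matrices 10 could be tested in T cells, with 2 called higher and 4 lower, against 14.2% and 12.8% of all genes. ITGA2, a collagen receptor chain, was at 2.52 to 5.25 CPM in ileal T cells and 0.236 and 0.677 CPM in PBMC (2.93 ± 0.45). ITGA5, a fibronectin receptor chain, was at 0.63 to 8.14 CPM and 12.7 and 29.2 CPM (-2.74 ± 0.38), and ITGB5 was lower at at most 0.34 CPM in the ileum (-3.63 ± 0.63). ITGB8, which takes part in TGF-β activation, gave 58 UMIs over the ileal T gates and 0 in PBMC. ITGB8 and ITGA2 were also called higher in the uncleaned myeloid gate, and the part of epithelial transcripts in their T cell values was not tested. In B cells 3 of 5 tested were lower (ITGB5, ITGB3 and ITGA2B), against 20.6% of all genes. ITGB3 and ITGA2B were also among the genes called lower in T cells. In innate cells the 1 tested was lower (ITGA2B, -0.76 ± 0.22). In the uncleaned myeloid gate 5 of 8 were higher, against 26.4%, with none tested after cleaning. The part of free RNA in the values of these other subunits was not tested.

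Of 7 ligand genes in the matrices, 3 could be tested in T cells and all 3 were called higher, against 14.2% of all genes. CDH1, the E-cadherin that αEβ7 binds, was at 2.71 to 17.6 CPM in ileal T cells and 0.79 and 1.26 CPM in PBMC (2.97 ± 0.50), and the free RNA of the ileum held 7.48 to 52.6 CPM of it against 1.19 to 1.39 CPM in PBMC. ICAM1, a ligand of LFA-1 and Mac-1, was higher in ileal T cells (2.59 ± 0.55) and in B cells, at 18.4 to 35.4 CPM against 2.91 and 3.03 CPM (2.76 ± 0.32), with 6.49 to 19.7 CPM in the free RNA of the ileum. ICAM2 in T cells was higher by 0.71 ± 0.13. In innate cells CDH1 was called higher, with 78 UMIs over the ileal and 2 over the PBMC libraries. In the cleaned myeloid gate ICAM1 (2.76 ± 0.53) and VCAM1, the ligand of α4β1, at 11.3 to 207 CPM against 1.19 and 2.49 CPM (6.24 ± 0.57), were higher.

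TGF-β, which raises ITGAE in T cells, was followed with 11 genes of its pathway. In T cells 3 of 10 tested were higher and 2 lower, against 14.2% and 12.8% of all genes, among them the feedback repressor SKIL at 108 to 151 CPM against 36.0 and 37.4 CPM (1.83 ± 0.12), the receptor TGFBR2 (0.93 ± 0.16), and the signal carriers SMAD2 (-1.60 ± 0.17) and SMAD3 (-1.20 ± 0.27). In innate cells SKIL was higher (1.67 ± 0.20) and SMAD2 lower (-1.13 ± 0.30) of 8 tested, near the shares of 10.8% and 12.9% over all genes. In B cells 3 of 10 were higher and 5 lower, against 14.1% and 20.6%, with SMAD3 (-3.49 ± 0.47) and the repressor SKI (-2.40 ± 0.32) lower and the inhibitor SMAD7 (2.05 ± 0.40) and the receptor TGFBR1 (1.68 ± 0.25) higher. In the cleaned myeloid gate RUNX3, a transcription factor used downstream of TGF-β, was at 69.0 to 158 CPM in the ileum and 3.74 and 5.96 CPM in PBMC (4.19 ± 0.29), and SKIL was higher (0.99 ± 0.28). Every value in these 4 lists that is given as higher or lower was called by edgeR, and in the T, B, innate and myeloid gates no list gene was called between PP and non-PP, where 9, 0, 5 and 2 had an unadjusted p below 0.05 and DESeq2 called 3, 0, 0 and 1.

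Across 32 sums (8 libraries by 4 gates) and 6331 genes, the genes whose log2 levels ran most like ITGAE were GZMA, coding for granzyme A, with a Pearson r of 0.93, RASGEF1A (0.92) and DUSP4 (0.91). ITGB2 ran most like KLF2, a transcription factor of circulating lymphocytes (0.91), RASA3 (0.90) and RGS19 (0.89), and ITGAL most like CAP1 (0.92), CD52 and DYNLT3 (both 0.88). ITGB7 ran most like TLN1, which codes for talin (0.88), ITGA4 like RPL10 and EMP3 (both 0.84), ITGB1 like SEMA6D and EFHD2 (both 0.83) and ITGAM like THEMIS2 (0.82). These correlations describe sums that share libraries, pigs and depth.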

How the data were processed

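Single-cell suspensions of ileum and PBMC from 2 pigs were sequenced on 10x Genomics libraries, each over 4 runs that the authors merged, so that 32 runs made 8 libraries. The deposited matrices held UMI counts that the authors made with Cell Ranger (4.0.6 per the labels' processing notes) on Sscrofa11.1 with a modified Ensembl annotation, before their removal of ambient RNA, cell filters and doublet removal. No normalization had been applied, and total counts per library were 21134542 to 40111934.

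Here cells were filtered at 1250 UMIs, 550 genes and 12.5% mitochondrial UMIs and gated on marker UMIs. The T gate took CD3E with at least 2 UMIs of CD3E, CD3D and CD3G, the B gate 2 of a B cell list, the myeloid gate 3 of a myeloid list, and the innate gate CD2 with 2 of an innate list and no CD3E, CD5, CD6, CD4, CD8B or TRDC, each with few or no UMIs of the other lists. Counts were summed per library and gate where at least 20 cells were present, and tested in edgeR 4.0.16 (R 4.3.3; filterByExpr, TMM, quasi-likelihood) over all genes, with the mean of the 3 ileal groups minus PBMC and PP minus non-PP as contrasts. Gates within a tissue were tested with library as block, and differences between gates as interaction terms without that block. The script was tested on simulated data. Shares used cells thinned to 1250 UMIs; intervals and floors would cover counting error only. Doublets, kept in the main results, were scored with Scrublet in scanpy 1.11.5, which removed 2.75 to 3.93% of cells in an alternative.

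Pairing came from the animal. Deviations of same-pig libraries from their group means correlated at 0.083 to 0.578 in 12 pairs of sums without whole ileum and at -0.106 to 0.065 in 12 pairs with it. The study's models had no pig term, so the fit with pig as replicate block was an alternative. Other alternatives were median-of-ratios size factors, DESeq2 1.42.0, no filter on low counts, stricter gates, doublets removed, at least 2000 UMIs per cell, ambient profile subtracted, ileal sums per pig and each library left out.

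The members and gene lists were chosen with earlier results of these data known. The rule for named genes was all 8 members, and of each list values for at most the 4 genes with the largest differences among those called in the T, B, innate or myeloid gate. A member not named between PP and non-PP, or between gates of a tissue, was not called or not tested there; the ileal myeloid gate, which went against its name, is not compared with T cells. Innate values include a subset of cells that is not reported here. The 3 genes most like each member had a mean of at least 10 CPM. Coordinates are those of RefSeq. Sequences are not given here.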

Additional observations from a re-analysis of the deposited data

Results flagged for a closer look

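Among the 8 integrin genes, 6 differences between gates passed a test of the difference itself, an interaction term in edgeR over the T, B and innate sums with Benjamini-Hochberg adjustment over all genes. That fit had no library block, so the gates of a library entered as separate sums although they share its droplets and depth. Between innate and T cells, 1.63% of all genes had an ileum minus PBMC difference that was called as unequal. ITGB2 was among them, with an ileum minus PBMC difference lower in innate than in T cells by -2.86 ± 0.27 on the log2 scale (SE; adjusted p = 1.3e-05). ITGA4 was the other, lower by -1.80 ± 0.33 (adjusted p = 0.0048). Both stood below PBMC in every ileal library of the innate and T gates. The ileal innate values of ITGB2 rest on 1 to 14 UMIs per library and are at background. Free RNA of the ileum held 39.6 to 48.4 CPM of ITGA4, inside the range of its ileal innate values. Neither was called under stricter gates (ITGB2 -1.92, adjusted p = 0.63; ITGA4 -1.36, adjusted p = 0.67), and both were without the 2 whole ileum libraries (adjusted p = 0.00044 and 0.041).

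Between B and T cells, 20.8% of all genes were called as unequal. The ileum minus PBMC difference of ITGAE was smaller in B than in T cells, by -2.74 ± 0.36 (adjusted p = 2.43e-05). The falls of ITGB2 (1.58 ± 0.23, adjusted p = 6.08e-05) and ITGB1 (0.94 ± 0.29, adjusted p = 0.025) were smaller in B than in T cells. ITGAL fell in T cells and was not called in B cells, with a difference between the gates of 0.85 ± 0.25 (adjusted p = 0.019). The ITGB1 and ITGAL calls were lost under stricter gates (adjusted p = 0.095 and 0.68) and without both whole ileum libraries (0.69, adjusted p = 0.21, and 0.86, adjusted p = 0.077). The PP minus non-PP difference of ITGB2 was lower in B than in T cells by -1.53 ± 0.33 and was not called (adjusted p = 0.063), where 0.203% of all genes were, but was with pig as a replicate block (adjusted p = 0.027), also without both whole ileum libraries (adjusted p = 0.017).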

How the results depend on the processing

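Of 1943 alternative values of single integrin genes in the tissue comparisons, 1867 kept their side of the threshold, 37 lost a call and 37 gained one. Another 2 changed sign with a call on at least 1 side. Sign changes between values that were not called are counted among the 1867. The 2 sign changes with a call were ITGB7 (0.43) and ITGAM (0.35) in the cleaned myeloid gate. That gate was chosen after seeing the data, as were the settings without both whole ileum libraries. With pig as a replicate block, 1 member was called lower in PP in T cells (ITGAE) and 4 lower in the ileum in γδ T cells, 4 genes differed between innate and T cells and 1 (ITGB2) between B and T cells for PP minus non-PP. The block also moved ITGB7 in T cells and ITGB1 in innate cells, as given above, and changed no other call. With both whole ileum libraries left out as well, 2 were lower in PP in T cells, 1 (ITGAE) was higher in the ileum in B and in CD4 T cells, 4 differed between innate and T cells, 2 between B and T cells, and 1 between B and T cells for PP minus non-PP. Without both whole ileum libraries and no block, members called higher fell to 0 in the ileal myeloid gate and to 0 in PP in CD8 T cells, and those that differed between B and T cells to 2.

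DESeq2 called 1 member lower in PP in B cells, 1 higher in PP in γδ T cells and 4 lower in ileal γδ T cells. Without a filter on low counts, 2 were lower in PP in T cells and 1 each in B and CD8 T cells, 1 was higher in PP in myeloid and in γδ T cells, 1 higher in ileal B cells, 2 in ileal myeloid cells, and 4 lower in ileal γδ T cells. Stricter gates left 3 lower in the ileal myeloid gate, 0 higher in PP in CD8 T cells and 1 lower in ileal γδ T cells. They left 2 differences for B against T cells. For innate against T cells only the non-PP library of pig 2 entered from the ileum, so that fit is not counted. The cleaned myeloid gate left 3 lower. Doublet removal, ambient subtraction and ileal sums per pig each left 1 lower in γδ T cells, and ambient subtraction made 1 (ITGAL) higher in CCR7-positive B cells. Without the library block, 7 calls within a tissue were lost and 1 was gained. In PBMC this left 1 member different between innate and T cells and 0 between CD8 or γδ and CD4 T cells. The causes were not tested.

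With single libraries left out, members higher in PP ranged from 0 to 1 in T, CD8 T and innate cells, the last being ITGA4 without the non-PP library of pig 1 (1.53, adjusted p = 0.043). In the ileal myeloid gate 0 to 2 were higher and 3 to 5 lower, and in ileal γδ T cells 1 to 4 were lower. A lone library in a group was then assumed to vary like the others.

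Over all genes, the count called in T cells for PP minus non-PP was 81 higher and 15 lower, and ranged over the alternatives from 29 to 362 and from 5 to 380, and with single libraries left out from 25 to 114 and from 0 to 74. For ileum minus PBMC it was 1415 and 1278 in T cells (933 to 1854 and 634 to 1975), 1387 and 2033 in B (1043 to 2152 and 1402 to 2067), 647 and 774 in innate (98 to 902 and 128 to 1146) and 2338 and 1669 in myeloid cells (562 to 3145 and 567 to 1902). With single libraries left out these counts ran from 789 to 1393 and from 811 to 1537 in T, 1022 to 1488 and 1216 to 1883 in B, 387 to 763 and 472 to 1009 in innate, and 1376 to 2883 and 869 to 1803 in myeloid cells. The low ends in innate cells over the alternatives came from stricter gates, where only the non-PP library of pig 2 had enough ileal cells. Over the alternatives PP minus non-PP gave 0 to 8 genes higher and 0 to 72 lower in B cells. In myeloid cells it gave 0 to 142 and 0 to 167. It gave 3 to 36 and 0 to 42 in CD8 and 0 to 59 and 0 to 71 in γδ T cells, each highest without the filter. Ileum minus PBMC gave 312 to 591 and 152 to 607 in CD4, 424 to 898 and 348 to 1001 in CD8 and 243 to 919 and 186 to 989 in γδ T cells. In CCR7-positive B cells it gave 468 to 979 and 295 to 679. Shares of cells moved by more than 1 SD in 61 of 64 cases when cells were not thinned. Depth limits ITGA1 and ileal ITGAM in T and innate cells, and groups of 2 were too small for a test of single outlying libraries.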

Other observations

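Cells in which JCHAIN made up at least 3% of UMIs, an antibody-secreting profile, numbered 6 to 124 per library, fewer than 20 in both non-PP libraries and only 20 and 21 in PBMC. They were not tested, and their integrin levels are given as values. ITGB1 was at 12.7 and 11.2 CPM in PP, 0 and 19.0 CPM in non-PP, 18.3 and 14.1 CPM in whole ileum, and 362 and 364 CPM in PBMC. All ileal values lay far below both PBMC values, and below the 52.1 to 99.3 CPM of ITGB1 in the free RNA of the ileum. ITGA4, the chain that pairs with ITGB1 and with ITGB7, was at 48.0 to 161 CPM in the ileum and 328 and 298 CPM in PBMC. ITGB7, the beta chain of the gut-homing α4β7, was at 89.5 to 267 CPM in the ileum and 261 and 437 CPM in PBMC.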
